A study of Homo sapiens with 4 samples.

Results

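The cyclin-dependent kinase (CDK) inhibitors are described here by 8 genes, CDKN1A, CDKN1B, CDKN1C, CDKN2A, CDKN2B, CDKN2C, CDKN2D and CDKN3. Every probe that the deposited bead-array table lists under 1 of these symbols was taken and kept apart, which gave 17 of the table's 47321 probes (8 of 31424 distinct symbols). RNA came from 2 human lung cancer lines, each as cells given a TET1 siRNA and as the parent line given vehicle. H1299 cells, from a non-small cell carcinoma of the lung, are known to lack p53, and A549 is a lung adenocarcinoma line with normal p53 that is known to have lost CDKN2A by homozygous deletion. The 4 groups are H1299 TET1 knockdown, H1299 control, A549 TET1 knockdown and A549 control, with 1 array each, so that a difference within a line has no replicate check. TET1 oxidises 5-methylcytosine in DNA, and the study asks how transcripts differ once it is depleted.

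CDK inhibitors restrain the kinases that carry a cell from G1 into S phase. The CIP/KIP members p21 (CDKN1A), p27 (CDKN1B) and p57 (CDKN1C) bind cyclin-CDK complexes and act mainly on CDK2, and p21 is a classical transcriptional target of p53. The INK4 members p16 (CDKN2A), p15 (CDKN2B), p18 (CDKN2C) and p19 (CDKN2D) bind CDK4 and CDK6 alone and keep RB in its active form, and CDKN2A also encodes ARF, which stabilises p53. CDKN3 is of another kind, a phosphatase that removes the activating phosphate of CDK2 and whose transcript is known to rise in dividing cells.

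Between 13980 and 17107 probes were detected per array, a probe counting as detected at a detection p-value under 0.01. The number was 14417 in the H1299 knockdown, 16883 in the H1299 control, 17107 in the A549 knockdown and 13980 in the A549 control, so the knockdown array held fewer detected probes than its control in H1299 and more in A549. The main TET1 probe, ILMN_3247163, had a raw signal of 186.8 in the H1299 knockdown and 255.9 in the H1299 control, and of 164.5 in the A549 knockdown and 222.1 in the A549 control, detected in the controls alone. Over both lines its change did not pass the test described below (limma unadjusted p = 0.149). The other TET1 probe, ILMN_1741056, read 137.5 and 182 in H1299 knockdown and control and 152.2 and 151.2 in A549 knockdown and control. That probe was detected in the H1299 control alone. The beta-actin probe ILMN_1777296 read 160.8 and 12059 in H1299 knockdown and control and 3314 and 152.4 in A549 knockdown and control, while the other ACTB probes were lower in both knockdowns. The probes of GAPDH also disagreed in their normalized log2 change, knockdown minus control. ILMN_1343295 changed by -1.26 in H1299 and 1.62 in A549, and ILMN_2038778 by -1.69 and 1.92. GAPDH probe ILMN_1802252 changed by 0.38 in H1299 and -0.11 in A549. Epithelial KRT8 and mesenchymal VIM were detected on all 4 arrays and epithelial CDH1, EPCAM and KRT19 in A549 alone, while neither probe of epithelial KRT18 was detected on any array. No probe of the alveolar, endothelial or fibroblast markers was detected, nor of the leukocyte markers PTPRC and CD3E, while the leukocyte marker CD14 was detected in both lines. These are bulk samples, in which fewer cells of a kind and less RNA per cell cannot be told apart.

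Promoters are shown for the 3 members whose levels set the lines apart most, CDKN1A, CDKN2A and CDKN2B, because CpG dinucleotides are where TET1 acts. Each window is the 250 bases before a RefSeq transcript start in GRCh38.p14, read 5′ to 3′ on the gene's strand, with every CpG in capitals. RefSeq gives CDKN2A 2 such starts. The one at the lower coordinate precedes the p16 reading frame and the other is the start of the ARF transcript.
CDKN1A, chr6:36678464-36678713, plus strand: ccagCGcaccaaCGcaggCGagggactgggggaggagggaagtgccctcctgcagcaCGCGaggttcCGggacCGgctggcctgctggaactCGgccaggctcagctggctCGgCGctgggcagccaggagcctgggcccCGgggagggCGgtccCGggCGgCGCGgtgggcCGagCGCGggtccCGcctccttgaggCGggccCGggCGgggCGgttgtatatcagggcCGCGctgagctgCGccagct
CDKN2A, start of p16, chr9:21974858-21975107, minus strand: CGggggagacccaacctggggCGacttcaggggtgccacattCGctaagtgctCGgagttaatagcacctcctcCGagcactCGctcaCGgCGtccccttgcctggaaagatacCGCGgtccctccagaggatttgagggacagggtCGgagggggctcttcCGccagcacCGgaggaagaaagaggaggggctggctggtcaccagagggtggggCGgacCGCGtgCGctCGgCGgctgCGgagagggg
CDKN2A, start of ARF, chr9:21995325-21995574, minus strand: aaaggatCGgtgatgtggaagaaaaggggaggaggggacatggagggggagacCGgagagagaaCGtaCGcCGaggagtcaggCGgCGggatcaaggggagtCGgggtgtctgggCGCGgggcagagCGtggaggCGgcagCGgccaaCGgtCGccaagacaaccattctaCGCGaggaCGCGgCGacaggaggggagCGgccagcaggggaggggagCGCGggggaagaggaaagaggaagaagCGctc
CDKN2B, chr9:22009306-22009555, minus strand: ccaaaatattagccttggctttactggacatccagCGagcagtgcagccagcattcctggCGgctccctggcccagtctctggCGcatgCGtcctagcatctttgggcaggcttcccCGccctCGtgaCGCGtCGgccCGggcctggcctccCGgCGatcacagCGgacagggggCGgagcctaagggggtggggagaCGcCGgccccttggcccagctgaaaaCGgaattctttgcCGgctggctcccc
The CDKN1A window holds 27 CpGs, more than 82.3% of 35116 RefSeq windows of the same length, whose median is 11. The ARF window holds 24, the p16 window 20 and the CDKN2B window 18 CpGs, more than 76.3%, 67.6% and 63.2% of windows. GC boxes, searched as GGGCGG on either strand, occur 4 times in the CDKN1A window, 2 times in the CDKN2B window and 1 time in the p16 window. The windows of the other detected members, not printed, held 27 CpGs for CDKN1B on chromosome 12, 33 for CDKN2D on chromosome 19 and 21 for CDKN3 on chromosome 14, more than 82.3%, 91.9% and 69.8% of windows. The ARF window has no GC box, and 42.6% of all windows hold at least 1. The TATA sequence TATAAA, present in 10.7% of all windows on either strand, occurs in none of these 4. Methylation was not measured, so these letters describe the reference alone.

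Of the 17 probes, 9 were detected on at least 1 array and 5 on all 4, while 8 were detected on none. Of all probes, 25.1% were detected on all 4 arrays and 57.9% on none. These 9 probes cover 6 of the 8 genes. CDKN1C and CDKN2C had no detected probe on any array. Their 4 probes and 4 further undetected probes of CDKN1A, CDKN2A, CDKN2B and CDKN2D had raw signals between 110.9 and 161.3, where the array medians were 147 to 158.5.

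CDKN1A showed the largest member increase in the H1299 knockdown. Its detected probe ILMN_1784602 had a raw signal of 4103.6 in the H1299 knockdown, 788.3 in the H1299 control, 4443.4 in the A549 knockdown and 4790.5 in the A549 control. The H1299 control stood alone at the low end, and the H1299 knockdown lay close to both A549 arrays. After background correction and quantile normalization the log2 signal was 11.76 in the H1299 knockdown and 9.31 in the H1299 control, and 11.95 in the A549 knockdown and 12.43 in the A549 control. The change was 2.45 in H1299, a 5.46-fold higher level, and -0.48 in A549, a 1.39-fold lower level. Among all probes detected on the array pair, 15.2% were at least 2-fold higher in the H1299 knockdown and 9.1% in the A549 knockdown. The typical probe on all 4 arrays changed by 0.33 in H1299 and by -0.19 in A549, and relative to these medians CDKN1A changed by 2.12 and by -0.29. The other CDKN1A probe, ILMN_1787212, was not detected on any array.

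CDKN1B gave opposite readings on its probes in H1299 and readings of the same sign in A549. The brighter probe, ILMN_2196347, had a raw signal of 1867.6 in the H1299 knockdown, 1075 in the H1299 control, 1176.1 in the A549 knockdown and 714.1 in the A549 control. Both knockdowns thus read above their own controls, by 0.74 in H1299 and 0.22 in A549 on the normalized log2 scale, and neither change reached 2-fold. Of all probes on all 4 arrays, 11.6% were likewise higher in both knockdowns. The dimmer probe, ILMN_1722811, had a raw signal of 250.2 in the H1299 knockdown, 698.9 in the H1299 control, 521.3 in the A549 knockdown and 208.3 in the A549 control. It was 4.14-fold lower in the H1299 knockdown and 2.55-fold higher in the A549 knockdown. Across all probes detected in both lines, 7.49% passed 2-fold in these same directions. On the deposited values the log2 change of the dimmer probe was -0.94 in H1299 and 0.47 in A549, below 2-fold in both. Without background correction it was -1.32 in H1299 and 0.77 in A549. The CDKN1B probes differed from each other by 2.79 log2 units in their H1299 change and 1.13 in their A549 change. Of 1682 genes with at least 2 probes on all 4 arrays, 5.95% had a gap between probes this wide or wider in H1299 and 18.1% in A549. The sign of the CDKN1B change in H1299 thus depends on the probe, while in A549 both probes read higher in the knockdown, the brighter one by less than 2-fold.

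**Figure D1:**
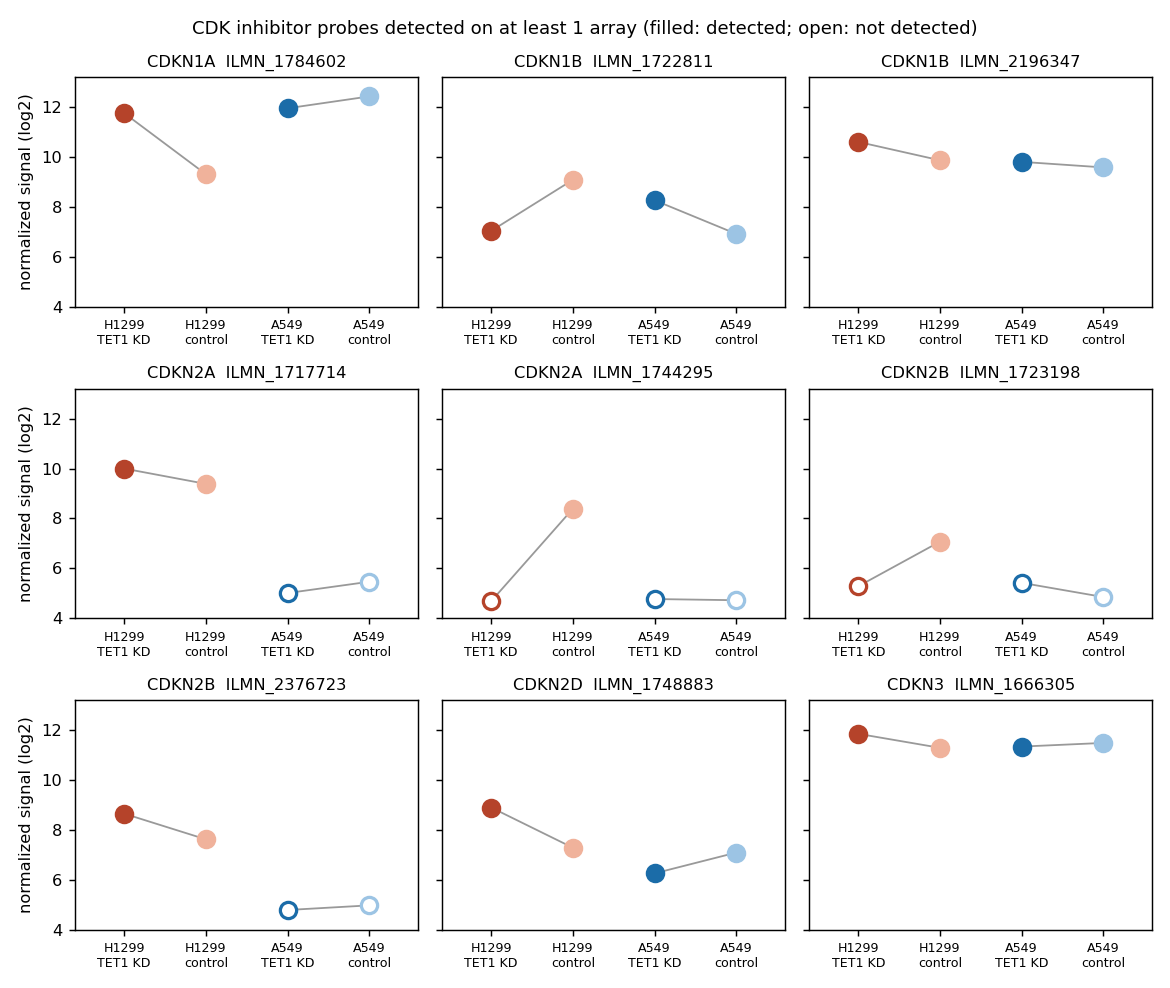
Normalized log2 signal of the 9 CDK inhibitor probes detected on at least 1 array, with each array on the horizontal axis (KD, knockdown) and a line joining knockdown and control of a cell line; filled points are detected and open points are not. CDKN1A is lowest in the H1299 control at 9.31, CDKN2A and CDKN2B are detected in H1299 alone, and the probes of CDKN1B, CDKN2A and CDKN2B disagree within H1299.

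The INK4 genes CDKN2A and CDKN2B were detected in H1299 and in neither A549 array. CDKN2A probe ILMN_1717714 had a raw signal of 1233.6 in the H1299 knockdown and 820.7 in the H1299 control, against 155.4 in the A549 knockdown and 159 in the A549 control. CDKN2B probe ILMN_2376723 had 532.7 in the H1299 knockdown and 355.3 in the H1299 control, against 143.5 on both A549 arrays. Either probe was detected on both H1299 arrays and neither A549 array, so its lack of overlap between the lines follows from detection. Only 1.57% of all probes were detected on both H1299 arrays and neither A549 array. Within H1299 the CDKN2A probe was 1.53-fold higher and the CDKN2B probe 2.04-fold higher in the knockdown. In A549 no fold can be given for either gene.

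A second detected probe of each of these genes read the other way in H1299. CDKN2A probe ILMN_1744295 had a raw signal of 136.4 in the H1299 knockdown and 501 in the H1299 control, with 142 in the A549 knockdown and 130.5 in the A549 control. It was detected in the H1299 control alone, and its knockdown level was lower by at least 5.2-fold, the undetected side being held at the lowest detected level of its array. As read, its log2 change was -3.71, and -3.76 with median centring and -2.63 with an offset of 50. It was -0.88 on the deposited values and -1.69 without background correction, both short of the bound. The bound is therefore given for the normalization used here. CDKN2B probe ILMN_1723198 had 166 in the H1299 knockdown and 283.9 in the H1299 control, with 174.7 in the A549 knockdown and 137.7 in the A549 control. It too was detected in the H1299 control alone, and its knockdown level was lower by at least 2.08-fold. As read, its change was -1.79, against -0.25 on the deposited values and -0.65 without background correction. Of all probes on the array, 2.63% were detected in the H1299 control alone. CDKN1B, CDKN2A and CDKN2B thus each had a dimmer probe that was lower, and a brighter probe that was higher, in the H1299 knockdown. Probes of opposite sign in H1299 were common, in 42.5% of the 1682 genes with at least 2 probes on all 4 arrays. CDKN1B is among those genes, while CDKN2A and CDKN2B, undetected in A549, are not. Which CDKN2A probe reads the p16 transcript and which reads ARF was not analysed here, since no probe sequence was used.

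CDKN2D, which encodes p19, was read by 1 detected probe, ILMN_1748883. Its raw signal was 621.6 in the H1299 knockdown, 309.1 in the H1299 control, 225.7 in the A549 knockdown and 219.4 in the A549 control. The H1299 knockdown stood above the other arrays, and the probe was detected on all 4. The normalized change was 1.61 in H1299, a 3.06-fold higher level, and -0.83 in A549. The A549 value is negative although its raw signal was slightly higher in the knockdown, and with arrays centred on their medians it was -0.12. On the deposited values the changes were 0.75 in H1299 and -0.18 in A549.

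CDKN3 was the member with the smallest H1299 change. Its only probe, ILMN_1666305, had a raw signal of 4359.7 in the H1299 knockdown, 2518.9 in the H1299 control, 3010.8 in the A549 knockdown and 2499.6 in the A549 control. The change was 0.56 in H1299 and -0.15 in A549, close to the medians of all probes, from which it differed by 0.23 and 0.04. In A549 the direction turned to 0.17 with median centring, which moved the median change of all probes to 0.31 in A549 and to 0.45 in H1299. CDKN3 in A549 therefore has no settled direction.

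Counted over probes, 3 of the 9 detected in H1299 were at least 2-fold higher in the knockdown, 1 each of CDKN1A, CDKN2B and CDKN2D, and 3 were at least 2-fold lower, 1 each of CDKN1B, CDKN2A and CDKN2B. The shares over all probes detected in H1299 were 15.2% higher and 14.5% lower, 29.7% in either direction. In A549, 1 of 5 was at least 2-fold higher, the dimmer CDKN1B probe, and 0 were lower, against 9.1% and 7.4% of all probes, 16.5% in either direction. On the deposited values, which are flatter near background, 1 probe was higher in H1299, 0 were lower, and 0 passed 2-fold in A549. The raw signal near background and the number of arrays limit the precision of these counts.

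Averaged over both lines, the knockdown effect passed the test for no member. The limma fit of line and knockdown was applied to 17002 probes detected on at least 2 arrays, of which 1 passed an adjusted p of 0.05 (0.00588%), and 7 member probes of 6 genes were among those tested. The largest mean change was that of CDKN1A, 0.99 ± 0.65 (SE, 2 lines; limma unadjusted p = 0.128). The other 6 ranged from -0.35 ± 1.12 for CDKN1B probe ILMN_1722811 to 0.48 ± 0.81 for CDKN1B probe ILMN_2196347. None of the 7 had an unadjusted limma p under 0.05. With 1 residual degree of freedom a probe and an infinite prior, the SE of a probe comes from the trend of residual spread over all probes at its signal level and not from the disagreement of the lines at that probe. Failing the test does not show that a gene was unchanged.

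Of the 5 member probes detected on all 4 arrays, 4 changed in opposite directions in the lines. CDKN1A, CDKN2D and CDKN3 were higher in the H1299 knockdown and lower in the A549 knockdown, the last of these with its direction in A549 unsettled by scaling. CDKN1B probe ILMN_1722811 was lower in H1299 and higher in A549. Among all 11894 such probes 79.7% changed in opposite directions, 53.1% in the manner of CDKN1A and 26.6% in that of the dimmer CDKN1B probe. The members' opposition is thus near the background of these arrays. The knockdown change in H1299 minus that in A549 was 2.93 for CDKN1A, 2.45 for CDKN2D, 0.71 for CDKN3 and -3.40 for CDKN1B probe ILMN_1722811. With 1 array per group these differences could not be tested. The arrays with more detected probes, the H1299 control and the A549 knockdown, are those on which the dimmer CDKN1B probe read higher, and the part of array quality in these changes was not tested.

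**Figure D2:**
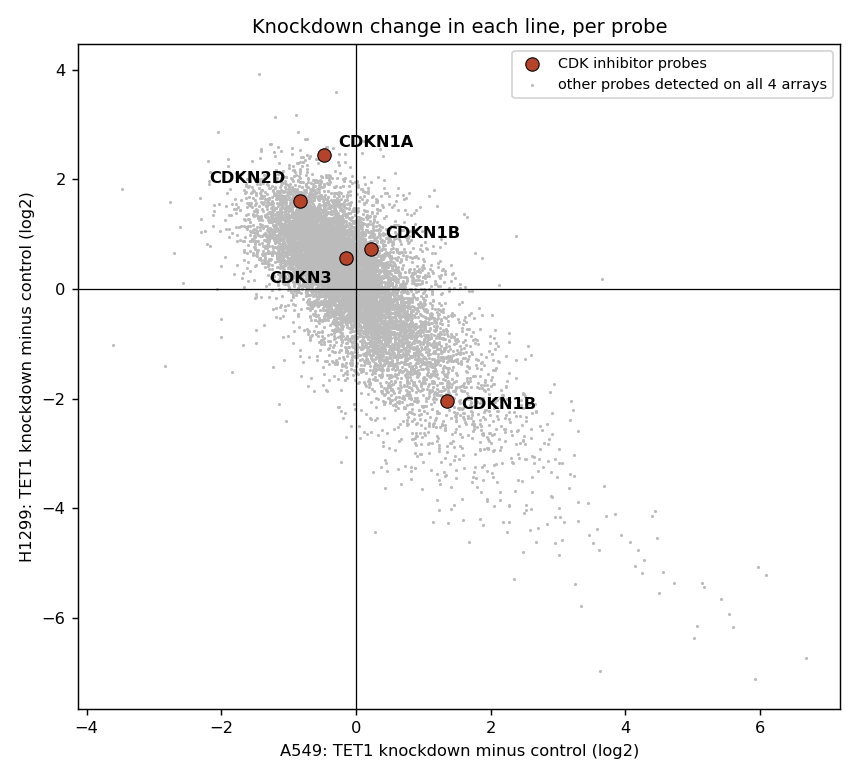
Knockdown minus control in H1299 (vertical, log2) against the same in A549 (horizontal, log2) for every probe detected on all 4 arrays; large points are the 5 CDK inhibitor probes and grey points the other probes. The cloud runs from upper left to lower right, CDKN1A (2.45 in H1299) lies at its upper edge, and the CDKN1B probes fall in different quadrants.

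Between the lines, the brighter probes of CDKN2A and CDKN2B were higher in H1299 in both treatments. Both probes entered the test through the H1299 arrays alone, so that passing it is no separate support. In A549 they have only a bound. The dimmer detected probes of these genes, which were not tested, differed as read by 3.67 for CDKN2A and 2.22 for CDKN2B between the controls. Between the knockdowns these dimmer probes differed by -0.09 and -0.14. The CDKN2A probe ILMN_1717714 averaged 9.69 in H1299 and 5.23 in A549, as read on the normalized log2 scale. With the undetected A549 arrays at their floor it was at least 14.6-fold higher in H1299 (2 arrays a line; limma adjusted p = 0.00455). CDKN2B probe ILMN_2376723 averaged 8.14 in H1299 and 4.88 in A549, and was at least 4.99-fold higher in H1299 (limma adjusted p = 0.0482). In the same test 1.26% of 17002 probes were higher in H1299 and 2.54% lower, 3.8% in either direction. For the brighter probes the difference as read was positive between the knockdowns and between the controls. It was 4.99 and 3.92 for CDKN2A and 3.86 and 2.65 for CDKN2B. The CDKN2A difference as read, 4.46, was 1.63 on the deposited values, where the call was lost (limma adjusted p = 0.202), and 2.47 without background correction, where it was kept. With median centring the difference was 4.54 and the call was lost (limma adjusted p = 0.174). The CDKN2B difference as read, 3.25, was 0.72 on the deposited values, 1.43 without background correction, 2.33 with an offset of 50 and 3.34 with median centring, and its call was lost under each of these and over probes detected on at least 1 array (limma adjusted p between 0.0547 and 0.213). The bounds above are given for the normalization used here, and on the deposited values the differences as read fell short of them.

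CDKN1A was lower in H1299 by this measure, at 10.53 in H1299 and 12.19 in A549. The difference of -1.66 ± 0.65 (SE; limma unadjusted p = 0.0108, adjusted p = 0.172) did not pass. The knockdowns differed by -0.19 and the controls by -3.12. For CDKN1B, CDKN2D and CDKN3 the line difference lay between 0.16 and 1.41 and did not pass (limma unadjusted p between 0.212 and 0.804). For the dimmer CDKN1B probe its sign turned between the treatments, -1.23 for the knockdowns and 2.17 for the controls.

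MTAP, the gene beside CDKN2A on chromosome 9 and an enzyme of methionine salvage, had a raw signal of 1004.8 in the H1299 knockdown and 1069.7 in the H1299 control. In A549 it had 189.3 in the knockdown and 152.4 in the control, detected in the knockdown alone. MTAP was higher in H1299 by 4.30 ± 1.13 as read (SE; limma adjusted p = 0.00683), and its H1299 change with knockdown was -0.17. With the undetected A549 control at its floor, MTAP was at least 14.5-fold higher in H1299. Its H1299 arrays alone met the detection filter of the test, so that passing it is no separate support. DMRTA1, another neighbour, had a raw signal of 158.7 in the H1299 knockdown and 248.2 in the H1299 control, with 203.5 in the A549 knockdown and 138.6 in the A549 control. It was detected in the H1299 control and the A549 knockdown, and its line difference of 0.49 ± 0.84 did not pass (SE; limma unadjusted p = 0.559). The antisense transcript CDKN2B-AS1 was detected on no array. The MTAP difference was 1.67 on the deposited values (limma adjusted p = 0.204) and 4.22 with median centring (adjusted p = 0.175), and passed under neither.

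**Figure D3:**
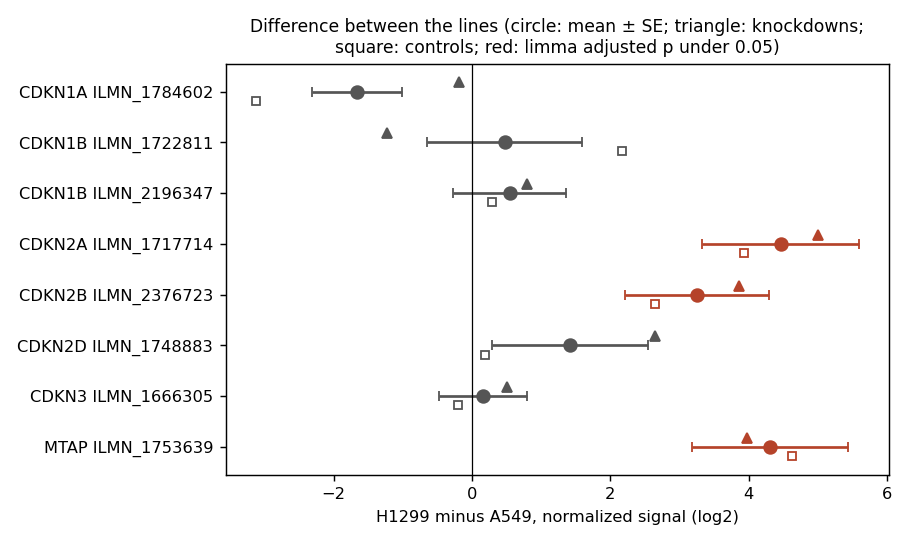
Difference between the lines, H1299 minus A549, in normalized log2 signal for the 7 tested CDK inhibitor probes and MTAP; circles with bars are the limma mean and SE over both treatments, triangles the knockdown arrays and open squares the control arrays. CDKN2A (4.46) and CDKN2B (3.25), both undetected in A549, and MTAP (4.30) lie to the right, and CDKN1A differs between the lines in the controls (-3.12) far more than in the knockdowns (-0.19).

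The kinases, cyclins and other genes on which these inhibitors bear were taken from 6 lists with 59 genes on the array, each gene by its brightest probe. In the test over both lines 0 of the 56 tested genes passed, against 0.00771% of all genes, and 0 had an unadjusted limma p under 0.05. In H1299, 4 of 57 detected genes were at least 2-fold higher and 7 at least 2-fold lower in the knockdown, against 17.2% and 12% of all genes. The 4 became 2 on the deposited values and 7 with median centring, and the 7 became 13 with the least bright detected probe of each gene. In A549, 1 of 54 was higher and 0 were lower, against 8.05% and 7.91%, and with median centring 9 were higher. Of the 47 list genes on all 4 arrays, 32 (68.1%) changed in opposite directions in the lines, against 79.7% of all genes. Their median change was -0.03 in H1299 and 0.08 in A549, and over all genes it was 0.37 and -0.21.

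Among CDKs and cyclins, 2 of 17 detected genes were at least 2-fold higher in the H1299 knockdown and 2 lower, against 17.2% and 12% of all genes. None passed in A549, against 8.05% higher and 7.91% lower. CDK2, the main kinase that p21 and p27 inhibit, changed by -2.05 in H1299 and 0.22 in A549. Its partners split, CCNE2 changing by -2.37 in H1299 and 0.22 in A549 and CCNE1 by 1.99 and -0.40. CCND3, a D-type cyclin that activates CDK4 and CDK6, changed by 1.45 in H1299 and 0.12 in A549. The targets of the INK4 proteins moved less, CDK4 by -0.50 in H1299 and 0.69 in A549 and CDK6 by -0.10 and -0.34. The mitotic kinase CDK1, listed under its older symbol CDC2, changed by -0.61 in H1299 and 0.18 in A549, and by -1.09 and 0.37 on another probe.

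Of the RB and E2F genes, 1 of 13 detected genes was at least 2-fold higher in the H1299 knockdown and 4 were lower, against 17.2% and 12% of all genes. E2F5, a repressive E2F, changed by -3.56 in H1299 and 0.67 in A549, and TFDP1, the dimer partner of E2F proteins, by -1.40 and 0.78. RBL2, an RB relative, changed by -1.11 in H1299 and 0.21 in A549, and TFDP2, another E2F partner, by 1.24 and -0.43. RB1, the substrate that the INK4 proteins protect, had a raw signal of 160.7 in the H1299 knockdown and 394.4 in the H1299 control, and of 243 in the A549 knockdown and 140.8 in the A549 control. RB1 was detected in the H1299 control and the A549 knockdown alone, as were 3.4% of all probes. With the undetected sides at their floors, its level was lower by at least 3.61-fold with knockdown in H1299 and higher by at least 1.28-fold in A549. On the deposited values the RB1 changes were -0.54 in H1299 and 0.18 in A549, both short of these bounds, which are given for the normalization used here.

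Among kinases and phosphatases that set CDK phosphorylation, WEE1, which inhibits CDK1, changed by -3.18 in H1299 and 0.45 in A549. The H1299 change of WEE1 was -1.235 on the deposited values. CDC25B, an activating phosphatase, changed by 0.01 in H1299 and 1.08 in A549, the only list gene whose brightest probe passed 2-fold in A549. By the brightest probe, none of the 11 genes of p21, p27 and p57 turnover reached 2-fold in either line. Of all genes, 17.2% were higher and 12% lower in H1299, and 8.05% and 7.91% in A549. SKP2, the ubiquitin ligase subunit that targets p27, changed by -0.13 in H1299 and -0.75 in A549, although its other probe on all 4 arrays changed by -1.11 and 0.68. The probes of DDB1 and EZH2 disagreed likewise, DDB1 changing by -0.89 or 1.22 in H1299 and 0.62 or -1.01 in A549. EZH2, a polycomb methyltransferase that represses INK4 genes, changed by 0.17 or -2.94 in H1299 and -0.58 or 1.83 in A549. TBX2, a repressor of INK4 and p21 genes, was the only listed INK4 regulator whose brightest probe passed 2-fold. It changed by 1.69 in H1299 and 0.37 in A549. TBX2 lay near background, with a raw signal of 296.3 in the H1299 knockdown and 183.3 in the H1299 control. On the deposited values its H1299 change was 0.34, below 2-fold.

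**Figure D4:**
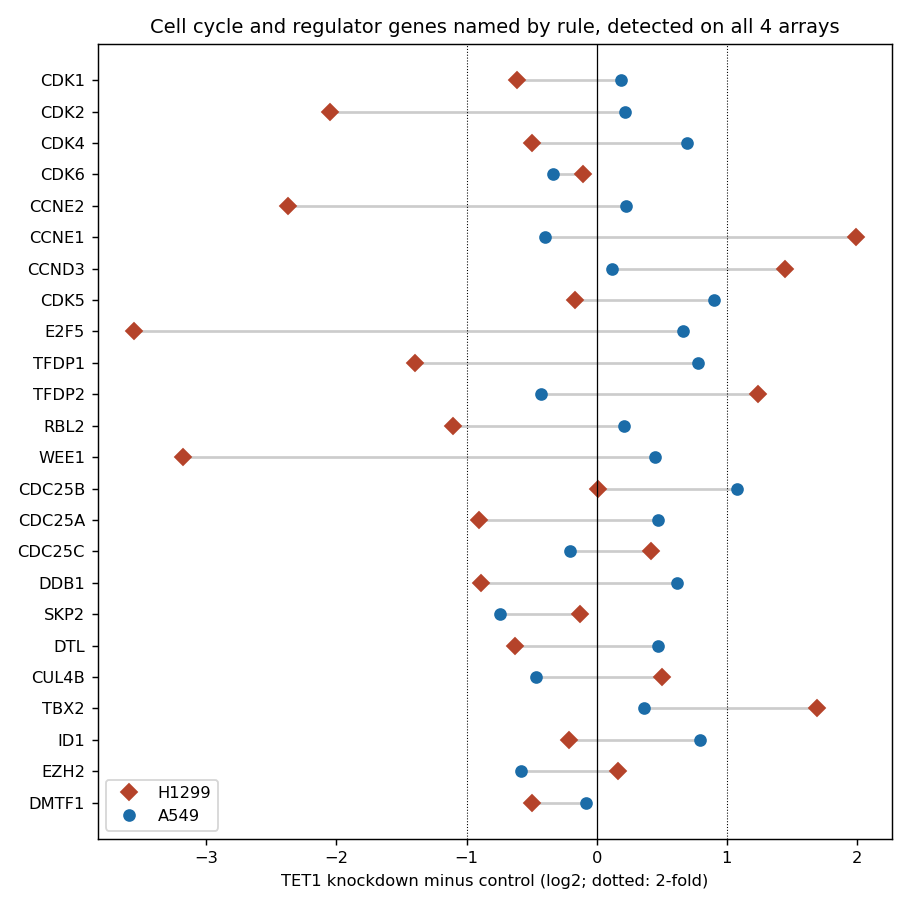
Knockdown minus control (log2, horizontal) in H1299 (diamonds) and A549 (circles) for 24 genes of the CDK, RB and regulator lists detected on all 4 arrays; dotted lines mark 2-fold. H1299 values spread from -3.56 for E2F5 to 1.99 for CCNE1, while in A549 only CDC25B (1.08) passes 2-fold.

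Between the lines, 4 list genes passed the limma test, 3 higher in H1299 and 1 lower, against 1.34% and 2.81% of all genes. Beside MTAP they were CCND3, CCND2 and ETS1, of which CCND2 and ETS1 are named after their values were seen. CCND3 was lower in H1299 by -1.97 ± 0.54 (SE; limma adjusted p = 0.0114). CCND2, another D-type cyclin, averaged 7.89 in H1299 and 4.49 in A549, where it was not detected, and was at least 4.2-fold higher in H1299 (limma adjusted p = 0.0182). It entered the test through the H1299 arrays alone, and its difference as read, 3.40, was 0.70 on the deposited values and 1.55 without background correction. ETS1, known to activate p16 transcription, was higher in H1299 by 2.75 ± 0.72 (SE; limma adjusted p = 0.00619). With median centring none of these 4 passed (limma adjusted p between 0.175 and 0.316). CCND3 also failed with no trend (limma adjusted p = 0.35) and no block for treatment (0.113), ETS1 with no filter on dim probes (0.061) and no trend (0.0674), and CCND2 with an offset of 50 (0.0594).

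The pattern of each fully detected member over the 4 arrays was also set against 16351 or 16350 probes of other genes, by the root mean square difference of mean-centred log2 values. Nearest to CDKN1A were SDSL (0.08), BLVRB (0.11) and SEL1L3 (0.15), which changed by 2.30 to 2.60 in H1299. Nearest to the brighter CDKN1B probe were KIF3A (0.03), LOC642738 (0.04) and DUSP2 (0.04), and nearest to CDKN2D were FLJ22184 (0.05), PTPN21 (0.06) and AK5 (0.07). CDKN3 had the closest neighbours, KLHDC4, ZNF483 and KDM2A, at 0.01 each. These are likenesses over 4 arrays and describe the arrays alone.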

How the data were processed

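Total RNA of 4 samples was measured on Illumina bead arrays, 1 array a group, with biotinylated cRNA per the labels, although their extraction text describes genomic DNA. The deposited non-normalized table gives, per the file headers, each probe's average signal intensity and its detection p-value. The authors' processed log2-like values, deposited separately and made with lumi per the submitters' processing notes, are flatter near background. How lumi transformed and scaled them is not given in the sources used here.

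Following the neqc steps (limma 3.58.1, R 4.3.3), normexp background correction took its negative controls from the detection p-values. After adding an offset of 16, values were log2 transformed and quantile normalized. A change counted at 2-fold or more; an undetected side was held at the lowest detected value of its array, or its own value where higher. Probes that at least 2 arrays detected entered a limma fit of line and knockdown, with a trend on signal and Benjamini-Hochberg adjustment, two-sided. The cell line, known from the labels, is the block. Separate cultures are not mentioned in the labels, and no group has a replicate array. The residual of the fit is therefore the disagreement of the lines in their knockdown change, not a spread between replicates. The p-values use the trend of that disagreement over all tested probes, and the spread between cultures was not measured.

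The script was tested on simulated data. Symbols were updated through RefSeq names; CDC2, which RefSeq lists as a synonym of CDK1 and of POLD1, was read as CDK1. The members and gene lists were chosen with earlier results of these data known. Named genes are all member, TET1, ACTB and GAPDH probes, CDK1, CDK2, CDK4, CDK6, RB1 and MTAP, up to 4 genes a list with the largest change among those on all 4 arrays, and the 3 nearest probes of each fully detected member; not all of them are discussed. The alternatives tried were no background correction, the deposited values, median centring, an offset of 50, other filters, no trend, no block and each line or treatment left out. Promoters came from RefSeq, GRCh38.p14. Figures were drawn with matplotlib 3.10.9.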

Additional observations from a re-analysis of the deposited data

Results flagged for a closer look

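For 4 member probes detected on all 4 arrays, the knockdown changed the signal one way in H1299 and the opposite way in A549. The difference, H1299 change minus A549 change on the log2 scale, was 2.93 for CDKN1A probe ILMN_1784602, -3.40 for CDKN1B probe ILMN_1722811, 2.45 for CDKN2D probe ILMN_1748883 and 0.71 for CDKN3 probe ILMN_1666305. These differences were not tested, since each group is 1 array. Among all probes detected on all 4 arrays, 79.7% changed in opposite directions.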

How the results depend on the processing

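Under the alternatives, 57 counts stayed within 1.5 times the value reported and 21 did not. On the deposited values the member probes past 2-fold numbered 1 higher and 0 lower in H1299 (3 and 3 as reported) and 0 higher in A549 (1 as reported), which was also 0 with no background correction. List genes higher in H1299 numbered 4, and 2 on the deposited values, 2 with no background correction and 7 with median centring; those lower in H1299 numbered 7, and 13 with the least bright detected probe for each gene; those higher in A549 numbered 1, and 9 with median centring. The count of probes past the knockdown test, 1 as reported, was 0 with median centring, 0 over probes detected on all 4 arrays and 0 with no block for line. The count past the test between the lines, 646, was 258 on the deposited values, 32 with median centring and 171 over probes on all 4 arrays, which leaves fewer probes. Member probes past it, 2 as reported, numbered 0 on the deposited values, 0 with median centring, 0 over probes on all 4 arrays, where CDKN2A and CDKN2B are left out, and 1 with no background correction, with an offset of 50 and over probes detected on at least 1 array. Apart from the changes these alternatives make by their construction, the cause was not tested.

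For single probes, CDKN3 in A549 turned to 0.17 with median centring. The mean over a member's detected probes in H1299 was -0.66 for CDKN1B, -0.88 for CDKN2A and -0.015 for CDKN2B, each against a positive brighter probe. For CDKN2A and CDKN2B the dimmer probe enters this mean as a bound, so it is not a mean of measured changes. With 1 line left out, which leaves no test, the knockdown change ranged from -0.48 to 2.45 for CDKN1A. It ranged from -2.05 to 1.35 for CDKN1B probe ILMN_1722811, from -0.83 to 1.61 for CDKN2D and from -0.15 to 0.56 for CDKN3. As read, it ranged from -0.46 to 0.61 for CDKN2A probe ILMN_1717714 and from -0.19 to 1.03 for CDKN2B probe ILMN_2376723. The values -0.46 and -0.19 are A549 readings of probes undetected on both A549 arrays. They are not measured changes, and no direction in A549 can be read from them. With 1 treatment left out, the difference between the lines ranged from -1.23 to 2.17 for CDKN1B probe ILMN_1722811 and from -0.20 to 0.51 for CDKN3. CDKN1C and CDKN2C stayed near background, where these arrays give no level. The block for line pairs each knockdown array with the control of its line, and no further pairing was possible with 1 array per group.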
